A study of Rattus norvegicus with 172 samples.

Results

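Proteasome subunit genes were examined in rat liver after 90 days of exposure to furan or 3-methylfuran. Every gene whose symbol begins with Psma, Psmb, Psmc, Psmd or Psme followed by a number was taken, which gave 42 of the 19777 symbols in the authors' comparison tables. Of these, 40 reached a mean of 1 CPM (counts scaled to library size) over all rats. Psmc3ip, 1 of the 40, shares the letters of the name but encodes a recombination factor, so 39 genes are described as proteasome genes. They comprise 14 constitutive genes of the 20S core, 16 of the 19S regulatory particle, 3 assembly chaperones of the 19S particle (Psmd5, Psmd9 and Psmd10), 4 immune subunits (Psmb8, Psmb9, Psme1 and Psme2) and 2 other activators (Psme3 and Psme4). Psma3l was counted as the core gene Psma3, under which RefSeq lists it. Psmb10 and Psmd7 were not analysed here.

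The furan experiment held 8 control rats, 8 rats at 0.03, 8 at 0.12, 7 at 0.5 and 7 at 2.0 mg/kg bw/day. The 3-methylfuran experiment held 8 control rats, 8 at 0.02, 8 at 0.075 and 8 at 1.0 mg/kg bw/day. Furan is a heterocyclic food contaminant that liver enzymes oxidize to a reactive aldehyde, and 3-methylfuran is the same ring with a methyl group. The rats were male and of the Fischer F344 strain, each was a separate animal, and each dose was compared with the controls of its own experiment.

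The 26S proteasome degrades proteins tagged with ubiquitin. Its 20S core is a barrel of alpha rings (Psma genes) and beta rings (Psmb genes), in which Psmb5, Psmb6 and Psmb7 carry the catalytic sites. The 19S particle caps the barrel: its ATPases (Psmc genes) unfold the substrate, and its other subunits (Psmd genes) bind ubiquitin, hold the particle together or remove the ubiquitin chain. Interferon induces Psmb8 and Psmb9, which replace Psmb5 and Psmb6 in newly built immunoproteasomes, together with the activator genes Psme1 and Psme2. When proteasome activity falls short, the factor NRF1 (gene Nfe2l1) raises transcription of core and 19S genes through antioxidant response elements in their promoters.

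Libraries held 11.4 to 27.7 M counts per rat for furan and 11.1 to 50.05 M for 3-methylfuran. The library kit went with the compound, so kit and compound cannot be told apart when the experiments are compared. TMM scaling factors, which correct library size for composition, were 1.02 to 1.41 at furan 2.0 against 0.894 to 0.963 in its controls, and 1.046 to 1.23 at 3-methylfuran 1.0 against 0.919 to 0.974. At furan 2.0, 1 of 12 hepatocyte markers was called higher and 10 lower (all genes: 24.0% and 22.5%). At 3-methylfuran 1.0, 2 were called higher and 8 lower (all genes: 21.2% and 22.5%). Apoa1, a hepatocyte marker, had medians of 1156 CPM in the furan controls and 2139 at furan 2.0. For 3-methylfuran its medians were 1331 CPM in controls and 2981 at 1.0 mg/kg. Of the 12 proliferation markers, 12 were called higher at both highest doses. With library size alone the hepatocyte markers had 1 and 3 (higher and lower) at furan 2.0 (all genes called: 74.3%). At 3-methylfuran 1.0 they had 3 and 2 (all genes called: 58.7%). Of 12 bile duct and stromal markers, 6 were tested for furan, and all 6 were called higher at furan 2.0 (all genes: 24.0%). Their median log2 fold change was 1.62 (2.07 with library size alone). For 3-methylfuran 5 were tested, and 1 was called higher at 1.0 mg/kg (all genes: 21.2%). The median there was -0.26 (-0.01 with library size alone). The filter can pass a marker through 1 dose group where it is high, so these counts are descriptive. The summed level of all 12 markers was 132 to 260.2 CPM in the furan controls and 162 to 862 at furan 2.0. For 3-methylfuran it was 104 to 126 CPM in controls and 99.7 to 158 at 1.0 mg/kg. The part of these markers in the results was not tested. In bulk tissue, fewer cells of a type and less RNA per cell cannot be told apart.

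Promoters were read from RefSeq (build GRCr8) for 35 of the 39 genes, from 250 bases before to 50 after the transcription start. Motifs were searched on both strands: the antioxidant response element core TGACNNNGC, the CCAAT box CCAAT, the interferon-stimulated response element core (GAAA, any 2 bases, GAAA) and the gamma-activated site core TTCNNNGAA. The antioxidant core lay in 8 of the 35 windows (22.9%), against 12.2% of 27457 rat promoters of the same length. The interferon-stimulated core lay in 4 (11.4%, against 3.77%), namely Psmb8, Psme2, Psma4 and Psmb3. The gamma-activated core lay in 3 (8.57%, against 8.68%) and the CCAAT box in 18 (51.4%, against 37.7%). A match of letters is a description and does not show binding. The windows of Psmb8, Psmb9, Psme2 and Psmb5 are shown because immune subunits are set beside a constitutive one in the results, and those of Psmd9 and Psmd13 because these genes were called at both highest doses in opposite directions. Each runs 5′ to 3′ on the strand of the gene from 250 bases before to 10 after the start, with the antioxidant, interferon-stimulated and gamma-activated cores in capitals. They lie at chr20:4657022-4657281 (minus strand) for Psmb8, chr20:4668750-4669009 (plus strand) for Psmb9, chr15:33052742-33053001 (minus strand) for Psme2, chr15:32047370-32047629 (minus strand) for Psmb5, chr12:39018255-39018514 (minus strand) for Psmd9 and chr1:205393998-205394257 (plus strand) for Psmd13.
Psmb8: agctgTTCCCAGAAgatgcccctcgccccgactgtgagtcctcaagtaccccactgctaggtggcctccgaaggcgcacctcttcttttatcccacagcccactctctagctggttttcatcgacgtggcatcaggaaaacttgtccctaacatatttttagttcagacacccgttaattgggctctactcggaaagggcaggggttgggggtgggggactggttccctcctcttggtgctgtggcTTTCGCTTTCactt
Psmb9: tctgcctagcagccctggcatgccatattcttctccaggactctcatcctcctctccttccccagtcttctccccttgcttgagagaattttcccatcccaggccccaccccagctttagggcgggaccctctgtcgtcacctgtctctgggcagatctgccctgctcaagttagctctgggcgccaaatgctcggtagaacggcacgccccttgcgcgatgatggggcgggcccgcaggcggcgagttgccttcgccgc
Psme2: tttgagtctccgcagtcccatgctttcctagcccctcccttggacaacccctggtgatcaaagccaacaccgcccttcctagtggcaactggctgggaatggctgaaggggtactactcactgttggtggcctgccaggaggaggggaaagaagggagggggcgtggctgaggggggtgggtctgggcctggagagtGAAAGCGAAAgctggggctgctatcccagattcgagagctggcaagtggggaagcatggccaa
Psmb5: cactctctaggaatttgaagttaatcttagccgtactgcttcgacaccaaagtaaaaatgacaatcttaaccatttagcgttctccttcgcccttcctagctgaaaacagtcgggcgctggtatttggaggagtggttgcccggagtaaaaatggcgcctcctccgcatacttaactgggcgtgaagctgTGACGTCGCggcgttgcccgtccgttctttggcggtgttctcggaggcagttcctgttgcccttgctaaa
Psmd9: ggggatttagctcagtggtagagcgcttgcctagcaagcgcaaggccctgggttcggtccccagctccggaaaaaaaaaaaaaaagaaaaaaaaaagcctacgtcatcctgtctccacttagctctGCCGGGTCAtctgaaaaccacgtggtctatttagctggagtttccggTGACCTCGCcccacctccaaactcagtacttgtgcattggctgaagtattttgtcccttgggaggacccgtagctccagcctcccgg
Psmd13: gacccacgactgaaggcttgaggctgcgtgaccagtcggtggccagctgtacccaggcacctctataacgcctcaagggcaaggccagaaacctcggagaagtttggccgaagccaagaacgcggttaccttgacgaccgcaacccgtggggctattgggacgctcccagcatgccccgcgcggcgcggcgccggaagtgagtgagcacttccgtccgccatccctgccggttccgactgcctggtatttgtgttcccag
The Psmb8 window held a gamma-activated core near its far end and an interferon-stimulated core across the start site, and the Psme2 window held an interferon-stimulated core. Psmb5 held 1 antioxidant core and Psmd9 held 2, while the letters of the marked cores were not in the windows of Psmb9 and Psmd13.

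At the highest dose of each compound, proteasome genes were called in both directions and by small amounts. With furan at 2.0 mg/kg, 12 of 39 genes (30.8%) passed an adjusted p of 0.05 in edgeR's quasi-likelihood test, against 46.5% of the 12727 genes tested. Under TMM scaling 2 were higher (all genes: 24.0%) and 10 lower (all genes: 22.5%). With 3-methylfuran at 1.0 mg/kg, 15 of 39 (38.5%) passed, against 43.6% of 11930 genes, with 7 higher (all genes: 21.2%) and 8 lower (all genes: 22.5%). The members' share called was below that of all genes in both under TMM scaling. With library size alone it was above, at 33 and 31 of 39 against 74.3% and 58.7% of all genes. No member changed by 1.5-fold or more in any comparison. The median size of change without its sign was 0.09 on the log2 scale over the members at furan 2.0, against 0.25 over all genes, and 0.09 against 0.21 at 3-methylfuran 1.0.

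The split between higher and lower calls depended on the scaling. With upper-quartile scaling the counts were 7 and 5 (higher and lower) at furan 2.0 and 13 and 3 at 3-methylfuran 1.0. With the upper quartile, Psmb2, Psmc6, Psmd1, Psmd4 and Psmd8 were no longer called lower at furan 2.0, and these calls were also lost with no filter and with only the 2 groups compared in the fit. At 3-methylfuran 1.0 the upper quartile ended the calls lower of Psma5, Psmc3, Psmd3, Psmd8 and Psmd11. Those of Psma5, Psmd3 and Psmd11 were also lost with no filter and with only the 2 groups compared, and that of Psmc3 in the latter. With library size alone, which leaves composition uncorrected, the counts higher and lower were 33 and 0 and 31 and 0, and the median of all genes moved to 0.42 and 0.25. Of all genes at furan 2.0 and 3-methylfuran 1.0, 48.3% and 44.1% were called with the upper quartile. With library size alone 74.3% and 58.7% were called. Among the genes called at furan 2.0, 51.6% were higher under TMM, 61.5% with the upper quartile and 91.8% with library size alone. At 3-methylfuran 1.0 these shares were 48.5%, 57.9% and 86.8%. Set against the median of all genes, 26 of 39 members lay below it at furan 2.0, 32 at furan 0.5, where none was called, and 14 at 3-methylfuran 1.0. At furan 0.5 the count was 25 without control 004 and 30 to 35 without any other 1 rat. Members vary together from rat to rat, so their number is not a count of independent results. Directions given here are those under TMM scaling, where the median of all genes was 0.02 at furan 2.0 and -0.001 at 3-methylfuran 1.0. The authors' deposited tables called the same 12 and 15 members in the same directions.

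**Figure D1:**
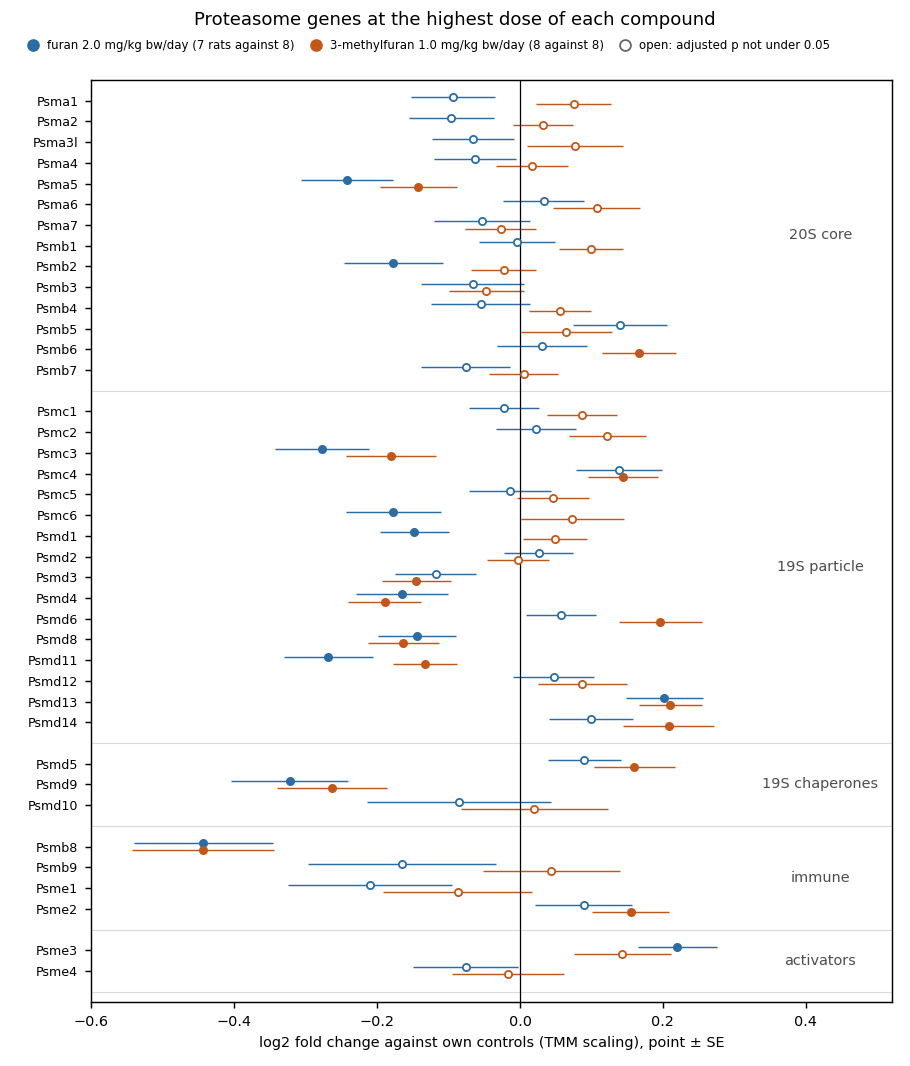
Log2 fold change of each of the 39 proteasome genes against the controls of its own experiment (TMM scaling, bars 1 standard error) at furan 2.0 mg/kg and 3-methylfuran 1.0 mg/kg, grouped by kind of subunit; filled points passed an adjusted p of 0.05. Psmb8 has the lowest value in both, -0.44 and -0.44, and with library size alone no member was called lower.

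The same 7 genes were called lower at both highest doses: Psmb8, Psmd9, Psmc3, Psmd11, Psmd4, Psmd8 and Psma5. They were 70% of the calls lower for furan and 87.5% of those for 3-methylfuran, where the shares over the 11885 genes tested in both experiments were 63.9% and 67.8%. With library size alone none of them was called lower. With the upper quartile, Psmb8 and Psmd9 were called lower at both. Psmd13 was called higher at both, 50% of the furan calls and 14.3% of the 3-methylfuran calls (all genes: 58.2% and 64.4%). No member was called in opposite directions, and the experiments share no rats.

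Of the 14 constitutive 20S core genes, 0 rose, 2 fell and 12 did not pass at furan 2.0 (all genes called: 46.5%). At 3-methylfuran 1.0, 1 rose, 1 fell and 12 did not pass (all genes called: 43.6%). The medians were -0.06 and 0.04. Library size alone gave 14 and 0 (higher and lower) and 13 and 0 (all genes called: 74.3% and 58.7%). Psma5, an alpha-ring subunit, was at 58.2, 64.04 and 80.6 CPM (lowest, median and highest rat) in the furan controls and 50.1, 55.7 and 60.7 at furan 2.0. It was at 65.5, 71.3 and 83.9 CPM in the 3-methylfuran controls and 60.4, 66.6 and 70.1 at 1.0 mg/kg. All exposed rats lay below their control mean and the ranges overlapped in both experiments. The log2 fold changes were -0.24 ± 0.06 (SE, 7 against 8 rats, edgeR adjusted p = 0.0021) and -0.14 ± 0.05 (8 against 8 rats, edgeR adjusted p = 0.0326). The call for 3-methylfuran was lost in 5 of 16 fits that left out 1 rat (MC502L, MC507L, ME582L, ME583L or ME586L), and with 1 run per rat, the upper quartile, no filter and only the 2 groups compared. Psmb2, a beta-ring subunit without a catalytic site, was the other core gene called at furan 2.0, at -0.18 ± 0.07 (edgeR adjusted p = 0.033), and that call was lost in 7 of 15 such fits. With 3-methylfuran Psmb2 was at -0.02 ± 0.05 and did not pass.

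Among the 3 catalytic core genes, 1 was called at a highest dose (all genes called: 46.5% at furan 2.0 and 43.6% at 3-methylfuran 1.0). Psmb5, the chymotrypsin-like subunit, was at 55.2, 63.5 and 76.4 CPM in the furan controls and 63.1, 71.5 and 77.8 at furan 2.0. Its log2 fold change of 0.14 ± 0.07 did not pass (edgeR adjusted p = 0.08), though it passed with the upper quartile, with library size alone, with a filter at a mean of 1 CPM, without control 004 and without rat 081 or 083. With 3-methylfuran it was 0.07 ± 0.06. Psmb6, the caspase-like subunit, rose with 3-methylfuran, from 48.4, 51.04 and 54.1 CPM to 48.5, 57.2 and 65.1, with 7 of 8 rats above the control mean and overlapping ranges. The log2 fold change was 0.17 ± 0.05 (edgeR adjusted p = 0.00899), and 0.03 ± 0.06 with furan. RefSeq lists a near copy of Psmb6, so the counting of its reads is uncertain. Psmb7, the trypsin-like subunit, was at -0.08 ± 0.06 with furan and 0.01 ± 0.05 with 3-methylfuran. Psmb1 had the smallest change of the core at furan 2.0, -0.004 ± 0.05 (edgeR adjusted p = 0.958).

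Within the 19S particle calls ran in both directions under TMM scaling. At furan 2.0, 1 of 16 genes was higher and 6 lower (24.0% and 22.5% of all genes). At 3-methylfuran 1.0, 4 were higher and 5 lower (21.2% and 22.5% of all genes). The medians were -0.02 and 0.06. The upper quartile gave 4 and 2 and 6 and 1 (all genes called: 48.3% and 44.1%). Library size alone gave 14 and 0 and 12 and 0 (all genes called: 74.3% and 58.7%). Among the ATPases, Psmc3 was at 108, 125 and 149 CPM in the furan controls and 95.9, 102 and 116 at furan 2.0, with all exposed rats below the control mean and overlapping ranges. The log2 fold changes were -0.28 ± 0.07 (edgeR adjusted p = 0.000723) and -0.18 ± 0.06 with 3-methylfuran (edgeR adjusted p = 0.02), the latter lost without control MC502L, without rat ME590L, with 1 run per rat, with the upper quartile and with only the 2 groups compared. Psmc6 fell at furan 2.0, at -0.18 ± 0.07 (edgeR adjusted p = 0.0287), a call lost in 5 of 15 fits that left out 1 rat, and was at 0.07 ± 0.07 with 3-methylfuran. Psmc4, named to complete the list of calls, rose with 3-methylfuran at 0.14 ± 0.05 (edgeR adjusted p = 0.0157). Psmc5 had the smallest change of the particle at furan 2.0, -0.01 ± 0.06.

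Psmd13 and Psmd11, both subunits of the lid of the particle, were called in opposite directions at both highest doses under TMM scaling, and Psmd11 was not lower with library size alone. Psmd13 went from 47.5, 54.3 and 59.5 CPM in the furan controls to 57.7, 62.4 and 67.95 at furan 2.0, and from 53.8, 57.4 and 62.5 in the 3-methylfuran controls to 61.9, 67.9 and 71 at 1.0 mg/kg. All exposed rats lay above their control mean, and the ranges overlapped at their edges. The log2 fold changes were 0.20 ± 0.05 (edgeR adjusted p = 0.00212) and 0.21 ± 0.04 (edgeR adjusted p = 0.000185), and both calls held under every scaling, filter, tool and left-out rat that was run. Psmd11 went from 116, 125 and 135 CPM to 90.1, 101 and 122 with furan and from 112, 119 and 132 to 103, 109.7 and 120 with 3-methylfuran, again with overlap. The log2 fold changes were -0.27 ± 0.06 (edgeR adjusted p = 0.000492) and -0.13 ± 0.05 (edgeR adjusted p = 0.0162), and 0.11 and 0.12 with library size alone.

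The ratio of Psmd11 to Psmd13 counts within a rat needs no scaling between libraries. It was 2.06, 2.34 and 2.53 (lowest, median and highest) in the furan controls and 1.41, 1.64 and 2.06 at furan 2.0. In the 3-methylfuran controls it was 1.91, 2.11 and 2.27, and 1.51, 1.66 and 1.82 at 1.0 mg/kg. Exposed rats lay below all controls in both experiments, by a narrow gap for furan. The pair was chosen after its values were seen, so no test is given.

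Other 19S calls were of similar size. Psmd4, a ubiquitin receptor, was at -0.17 ± 0.06 (edgeR adjusted p = 0.031) and -0.19 ± 0.05 (edgeR adjusted p = 0.00285). Psmd8 of the lid was at -0.14 ± 0.06 (edgeR adjusted p = 0.0294) and -0.16 ± 0.05 (edgeR adjusted p = 0.00758). For furan these calls were lost in 7 of 15 and 6 of 15 fits that left out 1 rat. Psmd14, the deubiquitinating enzyme of the lid, rose with 3-methylfuran from 28.8, 32.6 and 37.9 CPM to 32.4, 38.5 and 42.3, at 0.21 ± 0.06 (edgeR adjusted p = 0.00799), and was at 0.10 ± 0.06 with furan. Psmd6 of the lid rose with 3-methylfuran at 0.20 ± 0.06 (edgeR adjusted p = 0.00582) and was at 0.06 ± 0.05 with furan. Psmd3, named to complete the list of calls, fell with 3-methylfuran at -0.15 ± 0.05 (edgeR adjusted p = 0.0142). That call was lost with the upper quartile, with no filter and with only the 2 groups compared. Psmd2, a scaffold of the base, was at -0.003 ± 0.04 with 3-methylfuran, the smallest change of the particle there, and at 0.03 ± 0.05 with furan.

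The 3 chaperones that help build the base of the 19S particle differed among themselves. Psmd9 was at 19.8, 26.5 and 31.1 CPM in the furan controls and 18.4, 19.5 and 25.3 at furan 2.0. In the 3-methylfuran experiment it was at 22.4, 26.4 and 30.1 CPM in controls and 18.9, 22.6 and 24.2 at 1.0 mg/kg. All exposed rats lay below their control mean and the ranges overlapped. The log2 fold changes were -0.32 ± 0.08 (edgeR adjusted p = 0.00141) and -0.26 ± 0.08 (edgeR adjusted p = 0.0057), against 0.06 and -0.01 with library size alone. With 1 run per rat the call for 3-methylfuran was lost. Psmd5 rose with 3-methylfuran at 0.16 ± 0.06 (edgeR adjusted p = 0.0221), a call lost without control MC506L or without rat ME590L, and was at 0.09 ± 0.05 with furan. Psmd10 passed at neither dose, at -0.09 ± 0.13 and 0.02 ± 0.10.

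Psmb8, the immune counterpart of Psmb5, had the largest change of any member at both highest doses. It was at 38.8, 47.3 and 53.1 CPM in the furan controls and 29.1, 33.3 and 43.99 at furan 2.0. It was at 43.1, 48.6 and 67.5 CPM in the 3-methylfuran controls and 27.6, 38.2 and 45.7 at 1.0 mg/kg. All exposed rats lay below their control mean, and the ranges overlapped in both experiments. The log2 fold changes were -0.44 ± 0.10 (26.4% lower, edgeR adjusted p = 0.000263) and -0.44 ± 0.10 (26.5% lower, edgeR adjusted p = 0.000409). Leaving out any 1 rat kept them past the threshold, at -0.51 to -0.38 and -0.49 to -0.36. With library size alone they were -0.06 and -0.19 and did not pass, which relative to the median of all genes was -0.48 and -0.44.

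**Figure D2:**
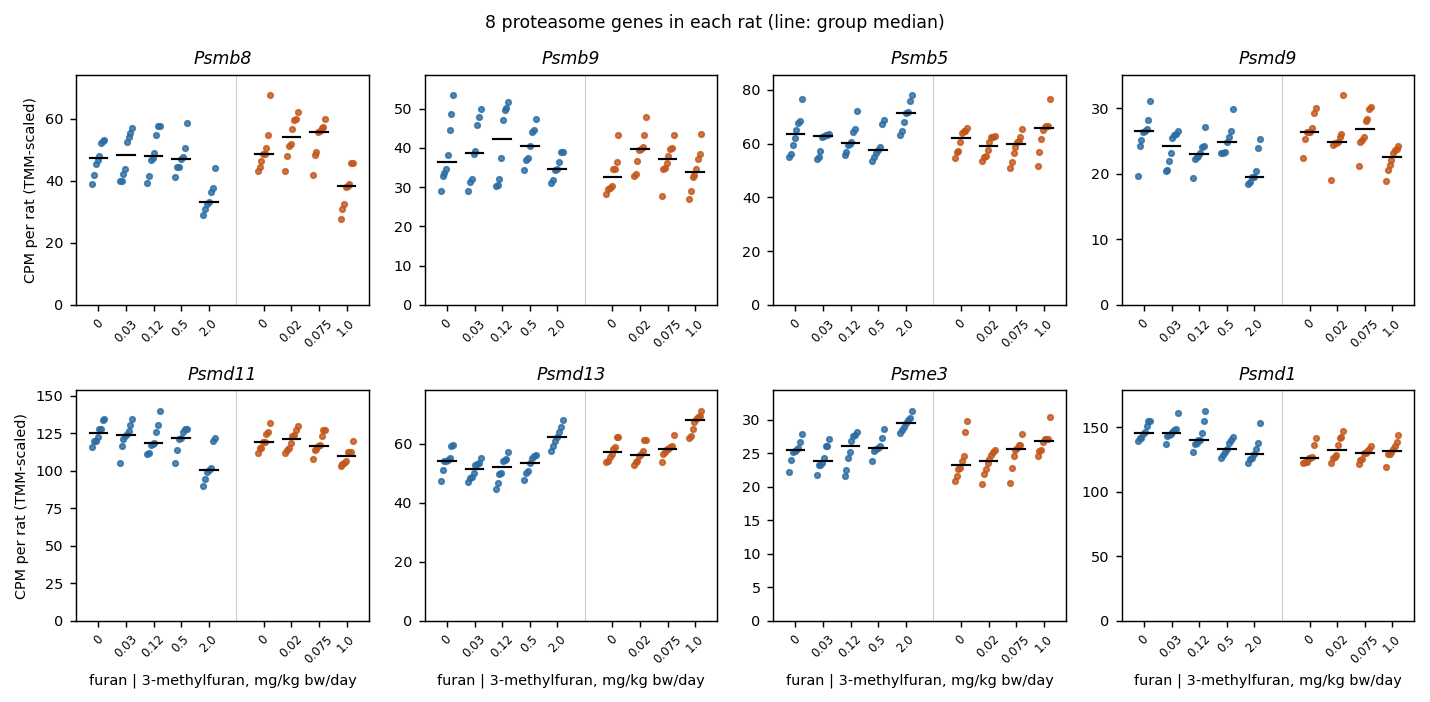
TMM-scaled CPM of selected proteasome genes in each rat (points, with group medians, sorted by value within a group) by dose in mg/kg bw/day for both compounds. At the highest doses Psmb8 has medians of 33.3 and 38.2 CPM against 47.3 and 48.6 in the controls, a lower level that library size alone does not show as a call.

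Of the 4 immune genes, 0 rose and 1 fell at furan 2.0 (24.0% and 22.5% of all genes). At 3-methylfuran 1.0, 1 rose and 1 fell (21.2% and 22.5% of all genes). Library size alone gave 1 and 0 and 2 and 0 (all genes called: 74.3% and 58.7%). Psmb9, the counterpart of Psmb6, was at 28.9, 36.5 and 53.4 CPM in the furan controls and 31.1, 34.7 and 38.9 at furan 2.0. Its log2 fold change of -0.17 ± 0.13 did not pass (edgeR adjusted p = 0.317), nor did 0.04 ± 0.10 with 3-methylfuran (edgeR adjusted p = 0.746). Psme1, a subunit of the 11S activator, was at -0.21 ± 0.12 (edgeR adjusted p = 0.131) and -0.09 ± 0.10 (edgeR adjusted p = 0.527), and RefSeq lists a near copy of it, so its counting is uncertain. Psme2, its partner, rose with 3-methylfuran from 61.2, 68.9 and 74.8 CPM to 71.6, 74.9 and 83.7, with 8 of 8 rats above the control mean and overlapping ranges. The log2 fold change was 0.16 ± 0.05 (edgeR adjusted p = 0.0197), lost without control MC512L or without rat ME587L. Both Psmb8 and Psme2 held an interferon-stimulated core in the windows shown above.

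The ratio of Psmb8 to Psmb5 counts within a rat was 0.678, 0.749 and 0.832 in the furan controls and 0.408, 0.492 and 0.581 at furan 2.0. In the 3-methylfuran controls it was 0.717, 0.784 and 1.04, and 0.416, 0.598 and 0.703 at 1.0 mg/kg. Exposed rats lay below every control rat in both experiments, by a narrow gap for 3-methylfuran. The ratio needs no scaling between libraries, but it takes in the changes of both genes. Under TMM scaling Psmb5 was at 0.14 with furan and 0.07 with 3-methylfuran, and neither passed. At furan 0.5 the ratio was 0.684, 0.785 and 0.946, and at 3-methylfuran 0.075 0.799, 0.909 and 1.01, both overlapping the controls. The ratio of Psmb9 to Psmb6 overlapped between groups, at 0.609, 0.751 and 1.095 in the furan controls and 0.649, 0.693 and 0.797 at furan 2.0. These pairs are described without a test, since ratios were chosen after values were seen.

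**Figure D3:**
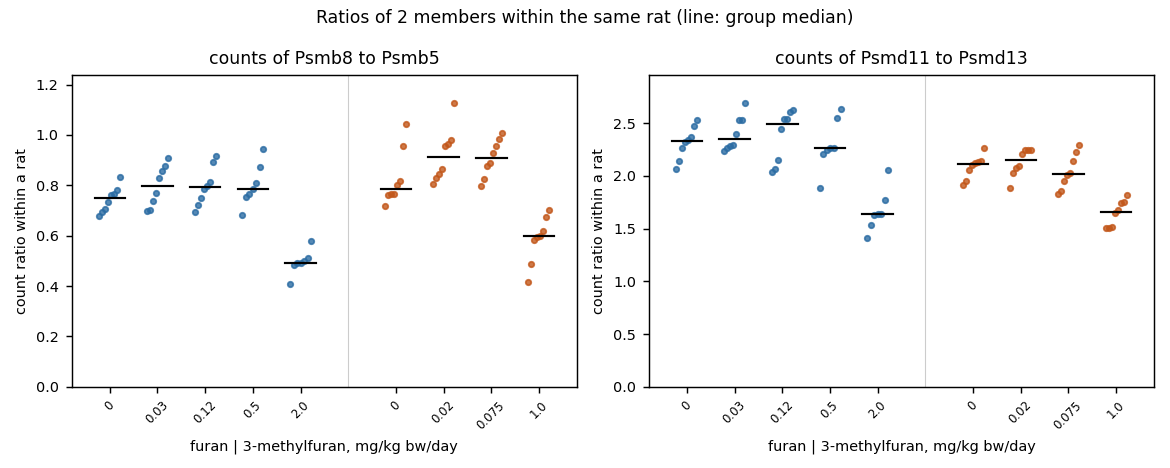
Ratios of counts of pairs of proteasome genes within each rat (points, with group medians, sorted by value within a group) by dose in mg/kg bw/day for both compounds. For Psmb8 to Psmb5, the furan 2.0 rats have a median of 0.492 and the furan controls 0.749, without overlap.

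Of 18 antigen presentation and interferon response genes tested beside Psmb8, 3 rose and 5 fell at furan 2.0 (24.0% and 22.5% of all genes). At 3-methylfuran 1.0, 2 rose and 4 fell (21.2% and 22.5% of all genes). The medians were -0.11 and 0.02. Library size alone gave 9 and 3 and 6 and 3 (all genes called: 74.3% and 58.7%). B2m, the light chain of class I molecules, fell at -0.53 ± 0.07 (edgeR adjusted p = 3.39e-07) and -0.38 ± 0.06 (edgeR adjusted p = 7.79e-07). Oas1a, an interferon-induced antiviral gene, fell at -0.77 ± 0.13 and -1.16 ± 0.14 (edgeR adjusted p = 1.18e-05 and 3.35e-08). Irf1, a factor that drives Psmb8 and Psmb9 after interferon, passed at neither dose, and Cd74 of class II presentation rose at 0.71 ± 0.26 and 0.50 ± 0.13 (edgeR adjusted p = 0.0249 and 0.00299). The summed level of the list, over all 19 genes matched, tested or not, was 2040 to 2603 CPM in the furan controls and 1616 to 2019 at furan 2.0. For 3-methylfuran it was 1985 to 2373 and 1514 to 1928. B2m made up most of this sum, at medians of 1659 CPM in the furan controls and 1110 at furan 2.0. Without B2m the other 18 matched genes had median sums of 592.3 and 643.9 CPM for furan (controls and 2.0 mg/kg). For 3-methylfuran these were 554.5 and 579 CPM (controls and 1.0 mg/kg), with overlapping ranges in both.

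Leukocytes express immune subunits strongly, and 20 of 22 leukocyte markers were matched, none of them at 0 in a whole group. Their summed level was 272 to 510.8 CPM in the furan controls and 227 to 472 at furan 2.0, and 185 to 263 and 141 to 341 for 3-methylfuran, with overlap in both. Of 10 tested, 2 rose and 0 fell with furan (24.0% and 22.5% of all genes). With 3-methylfuran 1 rose and 0 fell (21.2% and 22.5% of all genes). Library size alone gave 7 and 0 and 5 and 0 (all genes called: 74.3% and 58.7%, most of them higher). The part of leukocytes in the Psmb8 result was not tested.

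Psme3, the nuclear PA28 gamma activator, rose at furan 2.0 from 22.3, 25.4 and 27.8 CPM in controls to 28.02, 29.5 and 31.2. It was the only member whose rats at this dose all lay above or all lay below the controls (all genes: 5.77% above and 5.57% below). The log2 fold change was 0.22 ± 0.06 (edgeR adjusted p = 0.00127), which passed under every alternative run. With 3-methylfuran it went from 20.8, 23.3 and 29.9 CPM to 24.6, 26.9 and 30.4, with 8 of 8 rats above the control mean. There the log2 fold change of 0.14 ± 0.07 did not pass (edgeR adjusted p = 0.0851), though it passed with the upper quartile, with library size alone and without control MC511L or MC512L. Psme4, the PA200 activator, was at -0.08 ± 0.07 and -0.02 ± 0.08. At 3-methylfuran 1.0 no member was without overlap (all genes: 5.41% above and 6.08% below).

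Rats 086 and 089 had the highest levels of the furan 2.0 group in 9 of the 10 genes called lower, such as 44 and 37.7 CPM of Psmb8 against 29.1 to 36.5 in the others, and 122 and 120 CPM of Psmd11 against 90.1 to 102. Over all 39 members, called or not, rat 086 was the highest of the group in 18 and rat 089 in 14. The TMM factors of these rats were 1.02 and 1.08, against 1.2 to 1.41. Their summed hepatocyte markers were 188000 and 183100 CPM, against 121800 to 149100. The part of these values in the results was not tested. Leaving out rat 081, 082 or 085 reduced the genes called lower from 10 to 5, and leaving out 083 reduced them to 6. Leaving out control 004, or rat 081 or 083, raised the genes called higher from 2 to 4, and leaving out rat 085 or 092 gave 3.

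Levels of core members varied together from rat to rat. Each gene, as log2 CPM less the mean of its dose group, was correlated with the median of the other core genes treated alike. Differences between dose groups are thus left out. Pearson's r over the 38 furan rats had a median of 0.80 for the core, 0.69 for the 19S particle and 0.60 for the immune genes. Over the 32 rats of the 3-methylfuran experiment the medians were 0.54, 0.39 and 0.18. Psme3 and Psme4 had 0.09 and -0.01 in the furan rats. Genes of 1 rat share a library and its scaling factor, so these values are descriptive. Per rat, the median log2 difference of the core genes from the control mean was -0.12, -0.02 and 0.27 (lowest, median and highest) in the furan controls and -0.19, -0.08 and 0.11 at furan 2.0. For the immune genes it was -0.19, -0.03 and 0.29 and -0.21, -0.20 and -0.06. Control rat 004 of the furan experiment had all 14 core genes above the control mean.

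**Figure D4:**
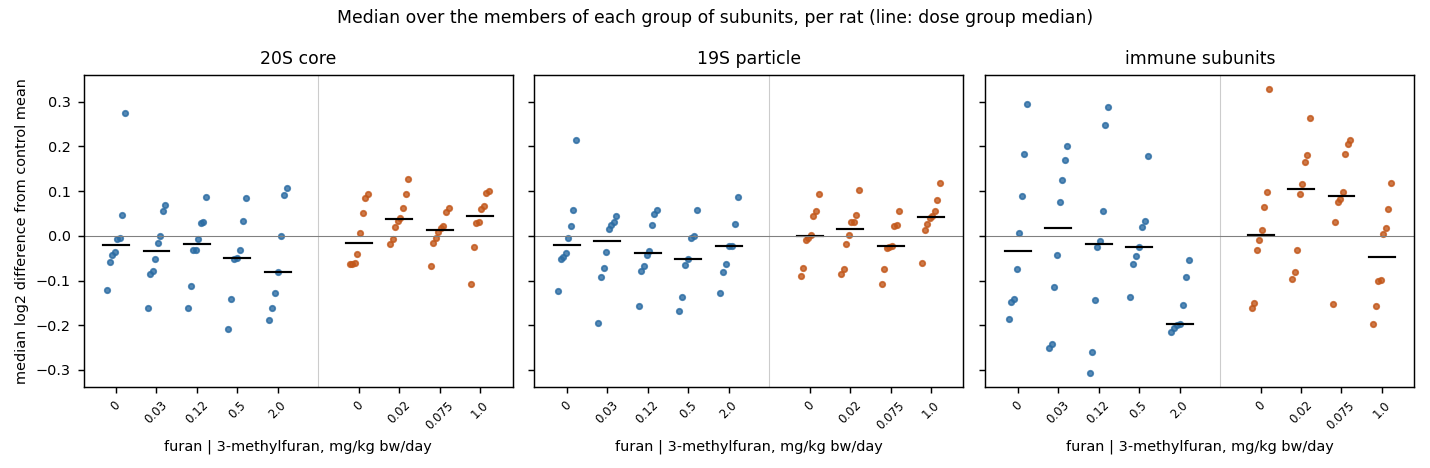
Median over the genes of each kind of subunit of the log2 difference from the control mean of the same experiment, for each rat (points, with group medians, sorted by value within a group) by dose in mg/kg bw/day, under TMM scaling. Core medians overlap between furan 2.0 and controls, and 1 furan control rat lies at 0.27.

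The coefficient of variation over the furan controls had a median of 10.4% for the core and 8.08% for the 19S particle, against 14.4% over all genes tested. Over the 3-methylfuran controls it was 6.39% and 6.8%, against 14.2%. All genes tested include genes at lower levels than these members, and no set matched by level was compared. Psmb9 varied most of the immune genes in the furan controls, at 21.8%, and Psmd1 least of the 19S particle, at 4.14%.

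No member was called at a lower dose by edgeR. At furan 0.5, 0.12 and 0.03 mg/kg, 0 of 39 passed, against 3.16%, 1.94% and 0.0707% of all genes, with 2, 1 and 1 members at an unadjusted p under 0.05. At 3-methylfuran 0.075 and 0.02 mg/kg, 0 of 39 passed, against 1.37% and 0.0335%, with 0 and 2 at an unadjusted p under 0.05. The authors' deposited tables also called 0 at these doses, and DESeq2 and limma voom called 0 at furan 0.5. Psmc3 and Psmd1 were the members with an unadjusted p under 0.05 at furan 0.5, at -0.19 ± 0.07 and -0.13 ± 0.05 (edgeR adjusted p = 0.104 and 0.141).

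The step from the second highest to the highest dose was tested directly. Between furan 0.5 and 2.0, 10 of 39 members differed, against 32.2% of all genes. At 2.0, 6 were higher (all genes: 15.6%), namely Psmd13, Psmb5, Psme3, Psmd5, Psmc4 and Psmd14, and 4 were lower (all genes: 16.5%), namely Psmb8, Psmd9, Psmd11 and Psma5. Psmb5 went from 53.4, 57.7 and 68.6 CPM to 63.1, 71.5 and 77.8, at 0.24 ± 0.07 (edgeR adjusted p = 0.00688). Psmd13 went from 47.8, 53.5 and 56.3 CPM to 57.7, 62.4 and 67.95 without overlap (all genes: 3.20% above and 2.04% below), at 0.24 ± 0.06 (edgeR adjusted p = 0.000849). Psmb8 was at -0.45 ± 0.10 (edgeR adjusted p = 0.000625).

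Between 3-methylfuran 0.075 and 1.0, 10 of 39 members differed (all genes: 34.9%). At 1.0, 7 were higher (all genes: 16.9%), namely Psmd13, Psmc4, Psmd6, Psmd5, Psme2, Psmb6 and Psmc1, and 3 were lower (all genes: 18.0%), namely Psmb8, Psmd9 and Psma5. Psmb8 went from 41.95, 55.9 and 60.1 CPM to 27.6, 38.2 and 45.7, at -0.52 ± 0.10 (edgeR adjusted p = 8.32e-05). These comparisons share the highest-dose rats with those against controls, and other scalings were not run for them.

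The compounds were compared as a difference of effects over 70 rats, each effect against its own controls. Their doses do not match. Between furan 2.0 and 3-methylfuran 1.0, 1 of 39 members differed, against 7.23% of 12941 genes, with 0 higher for furan (all genes: 3.52%) and 1 lower (all genes: 3.72%). Psmd1, a scaffold of the 19S base, was at 139, 146 and 155 CPM in the furan controls and 122, 129 and 153 at furan 2.0, and fell there at -0.15 ± 0.05 (edgeR adjusted p = 0.0109). It was at 123, 126 and 142 CPM in the 3-methylfuran controls and 119, 132 and 144 at 1.0 mg/kg, at 0.05 ± 0.05. The difference of effects was -0.21 (95% interval -0.33 to -0.08, edgeR adjusted p = 0.0311). It was lost with no filter, with library size alone and in 8 of 31 fits that left out 1 rat. For Psmb8 the difference was -0.01 (95% interval -0.29 to 0.27) and for Psmd13 -0.02 (-0.15 to 0.12), and neither passed.

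Between furan 0.5 and 3-methylfuran 1.0, 6 of 39 members differed (all genes: 21.4%), 1 higher for furan (all genes: 10.8%) and 5 lower (all genes: 10.6%). Psmb8 was higher for furan, at 0.44 (95% interval 0.16 to 0.72, edgeR adjusted p = 0.0166). Psmd14, Psmd13, Psmd6, Psmd5 and Psmd1 were lower for furan, at -0.28, -0.26, -0.25, -0.25 and -0.19.

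Genes that build or regulate the proteasome were called in both directions. Of 12 assembly, inhibitor and associated proteins tested, 3 rose and 5 fell at furan 2.0 (24.0% and 22.5% of all genes). At 3-methylfuran 1.0, 2 rose and 4 fell (21.2% and 22.5% of all genes). Library size alone gave 10 and 0 and 7 and 1 (all genes called: 74.3% and 58.7%). Among chaperones of the 20S core, Psmg1 fell at -0.34 ± 0.07 and -0.41 ± 0.06 (edgeR adjusted p = 5.64e-05 and 8.72e-07). Its partner Psmg2 rose at 0.31 ± 0.09 and 0.24 ± 0.09 (edgeR adjusted p = 0.00307 and 0.0357), and Psmg4 rose at 0.44 ± 0.10 and 0.45 ± 0.07 (edgeR adjusted p = 0.000575 and 2.17e-06). Psmf1, which encodes the inhibitor PI31, fell at -0.29 ± 0.06 and -0.34 ± 0.05 (edgeR adjusted p = 0.000197 and 3.74e-06). Zfand2a, a stress-induced proteasome adaptor, was at 8.67, 10.7 and 14.02 CPM in the furan controls and 8.82, 32.2 and 48.3 at furan 2.0. It rose with furan at 1.36 ± 0.28 (edgeR adjusted p = 0.000163), with 4 of 7 rats above the control mean, and was at 0.15 ± 0.11 with 3-methylfuran. The difference between compounds was 1.21 (95% interval 0.57 to 1.84, edgeR adjusted p = 0.0119). Psmg2, Psmf1 and the genes named from lists here were picked as examples after their values were seen.

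Genes that bring substrates to the proteasome were read from the same fits. Of 16 genes of substrate delivery and deubiquitination, 2 rose and 8 fell with furan (24.0% and 22.5% of all genes). With 3-methylfuran 3 rose and 6 fell (21.2% and 22.5% of all genes). Library size alone gave 15 and 0 and 11 and 0 (all genes called: 74.3% and 58.7%). Usp5, which recycles free ubiquitin chains, rose at 0.31 ± 0.05 and 0.35 ± 0.06 (edgeR adjusted p = 5.85e-06 and 9.19e-06). Ubqln2, a shuttle to the proteasome, fell at -0.36 ± 0.07 and -0.36 ± 0.07 (edgeR adjusted p = 4.71e-05 and 4.78e-05).

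Of the 3 genes of the NRF1 route, 0 rose and 1 fell at furan 2.0 (24.0% and 22.5% of all genes). At 3-methylfuran 1.0, 1 rose and 0 fell (21.2% and 22.5% of all genes). Library size alone gave 3 and 0 and 2 and 0 (all genes called: 74.3% and 58.7%). Nfe2l1 was at 0.03 ± 0.06 with furan (edgeR adjusted p = 0.635) and rose at 0.19 ± 0.05 with 3-methylfuran (edgeR adjusted p = 0.00332). The difference between compounds did not pass (edgeR adjusted p = 0.18). Ngly1, which deglycosylates NRF1, fell with furan at -0.23 ± 0.06 (edgeR adjusted p = 0.00279). Of 19 genes of the NRF2 response, whose products handle oxidants and electrophiles, 12 rose and 2 fell with furan (24.0% and 22.5% of all genes). With 3-methylfuran 11 rose and 2 fell (21.2% and 22.5% of all genes). Their medians were 0.48 and 0.44, beside -0.07 and 0.05 for the 39 proteasome genes. Library size alone gave 17 and 0 and 13 and 0 of the 19 (all genes called: 74.3% and 58.7%). The 8 members with an antioxidant core in the promoter window were Psma3l, Psmb2, Psmb5, Psmb6, Psmd1, Psmd3, Psmd9 and Psme4. Of these Psmb2, Psmd1 and Psmd9 were called lower at furan 2.0 (all 39 members: 25.6%, all genes: 22.5%). At 3-methylfuran 1.0 Psmb6 was called higher (17.9% and 21.2%) and Psmd3 and Psmd9 lower (20.5% and 22.5%). The upper quartile ended the calls of Psmb2, Psmd1 and Psmd3, and with library size alone no member was called lower. A link of the calls to the promoter letters was not tested.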

How the data were processed

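Liver RNA of 70 rats was sequenced in 172 runs, 2 per furan rat and 3 per 3-methylfuran rat. The authors deposited read counts per gene, made with STAR 2.7.1a and featureCounts 2.0.0 on Rnor_6.0 per the submitters' processing notes; whether strand was used is not given in the sources used here. Their deposited comparison tables hold a fold change (a linear ratio for 3-methylfuran, a signed fold for furan) and an adjusted p-value from DESeq2 1.26.0, per the same notes. Runs of a rat were summed, and groups come from the labelled diet; controls were put with the experiment whose count table holds them.

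Counts were tested with edgeR 4.0.16 (quasi-likelihood F test, TMM, filterByExpr at 10 counts, 1 fit per experiment), with Benjamini-Hochberg adjustment over all genes and a call at 0.05; a fit of all 70 rats gave differences of effects. CPM values are TMM-scaled. The scripts were tested on simulated data. Alternatives were other scalings, filters, DESeq2 1.42.0, limma 3.58.1 voom, 1 run per rat, fewer groups and leaving out each rat. Genes were named by rule: catalytic, immune and activator genes, the 3 largest calls each way per kind of subunit, the smallest changes, and calls between compounds. The members and lists were chosen with earlier results of these data known. Some genes of the lists, and the list of ubiquitin supply, are not reported here.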

Additional observations from a re-analysis of the deposited data

Results flagged for a closer look

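Single rats stood apart from their dose group in 5 of 261 groups of values examined, by a gap to the nearest rat that was large for the range of the group. Chance flags about 1 in 20 such groups, or 13.1 here. Control rat 004 of the furan experiment had 134.4 CPM of Psmb1 against 108.9 to 118.2 in the other controls. The same rat had a median over the 14 core genes of 0.27 against -0.12 to 0.05 (log2 over the control mean). Rat 023 at furan 0.03 had 40.33 CPM of Psmd14 against 31.45 to 34.71. Rat 072 at furan 0.5 had 51.22 CPM of Psme2 against 60.07 to 67.01. Rat ME590L at 3-methylfuran 1.0 had 30.35 CPM of Psme3 against 24.6 to 27.16.

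The effects of the compounds differed for Psmd1 between furan 2.0 and 3-methylfuran 1.0, by -0.21 on the log2 scale. Between furan 0.5 and 3-methylfuran 1.0 they differed for Psmb8 (0.44), Psmd14 (-0.28), Psmd13 (-0.26), Psmd6 (-0.25), Psmd5 (-0.25) and Psmd1 (-0.19), at doses that do not match and with kits that go with the compound.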

How the results depend on the processing

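At furan 2.0 the members called higher were 33 with library size alone, 7 with the upper quartile and 4 with a filter at a mean of 1 CPM, and those called lower were 0 with library size alone and 5 each with the upper quartile, no filter and only the 2 groups compared. At 3-methylfuran 1.0 those higher were 31 with library size alone and 13 with the upper quartile, and those lower were 0 with library size alone, 3 with the upper quartile, 5 each with no filter and 1 run per rat, and 4 with only the 2 groups compared. The member called lower in the difference between compounds became 0 with library size alone and with no filter. Leaving out 1 rat gave 2 to 4 higher and 5 to 10 lower at furan 2.0, 6 to 10 and 6 to 8 at 3-methylfuran 1.0, 0 to 0 for both at furan 0.5, and 0 to 0 and 0 to 2 in the difference. The share of all genes called at furan 2.0 was 46.5% under TMM, 74.3% with library size alone, 48.3% with the upper quartile and 26.5% with no filter. At 3-methylfuran 1.0 these shares were 43.6%, 58.7%, 44.1% and 23.6%. The cause of these shifts was not tested. With library size alone, log2 fold changes turned sign at furan 2.0 for Psma5 (0.15), Psmb1 (0.38), Psmb2 (0.21), Psmb7 (0.31), Psmc3 (0.11), Psmc5 (0.38), Psmc6 (0.20), Psmd1 (0.24), Psmd11 (0.11), Psmd4 (0.22), Psmd8 (0.25), Psmd9 (0.06) and Psme4 (0.30), and at 3-methylfuran 1.0 for Psma5 (0.11), Psmb2 (0.23), Psmc3 (0.07), Psmd11 (0.12), Psmd2 (0.25), Psmd4 (0.06), Psmd8 (0.09) and Psme4 (0.23). No paired analysis was possible because rat numbers are not shared between groups.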

Other observations

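Psmc3ip, which matches the naming pattern without being a subunit, was at 1.15, 1.89 and 2.41 CPM (lowest, median and highest) in the furan controls and 1.61, 2.27 and 3.59 at furan 2.0, a log2 fold change of 0.41 ± 0.17 that did not pass in edgeR's test (adjusted p = 0.0501). With 3-methylfuran it was at -0.01 ± 0.15. Psma8 and Psmb11, subunits known from testis and thymus, reached at most 10 and 2 counts in any rat and were not tested.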
